A study of Mus musculus with 36 samples.

Results

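Heat shock proteins and their partner chaperones were followed along the mouse intestine. The members were all genes whose annotated symbol begins with Hspa, Hspb, Hsp90, Hspd, Hspe, Hsph, Dnaja, Dnajb, Dnajc, Cct or Pdia, together with Calr, Canx and P4hb. Each gene was represented by 1 probe set, the brightest on array set A. Genes without one there took the brightest on B, and failing that on C. The rule gave 86 of 15964 genes, with 62 taken from array set A, 20 from B and 4 from C. Levels were not used to choose the members, only to choose among the probe sets of a gene. By role there were 11 cytosolic Hsp70 and Hsp110 genes, 1 cytosolic Hsp90 gene, 8 small heat shock proteins, 2 Hsp-binding partners, 29 J-domain proteins of the cytosol and other sites, 19 endoplasmic reticulum (ER) chaperones and disulfide isomerases, 9 CCT genes and 7 mitochondrial chaperones. Dnajc19 was found only on probe sets annotated to several genes and was left out.

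Chaperones bind unfolded stretches of other proteins and keep them from clumping until they fold. Hsp70 proteins do this in cycles driven by ATP, J-domain proteins hand them their clients, Hsp110 proteins reload them, and Hsp90 proteins finish signalling proteins such as steroid receptors. The CCT ring folds actin and tubulin, Hsp60 and Hsp10 form the folding chamber of mitochondria, and disulfide isomerases with the ER chaperones fold secreted and membrane proteins. Heat shock factors drive many of the cytosolic and mitochondrial genes through heat shock elements, and the unfolded protein response drives ER genes through ER stress elements. The intestine makes large amounts of secreted protein in goblet, Paneth and plasma cells, and its muscle coat is rich in small heat shock proteins. The exocrine pancreas, a separate organ, also makes much secreted protein.

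The samples were whole segments of intestine from male mice of the outbred stock Hsd:ICR(CD-1), aged 8 weeks and fed standard chow, with no treatment named. There were 4 segments, the duodenum, jejunum, ileum and undivided colon, with 3 samples each, and each sample pooled tissue of 10 mice. Every sample was hybridised to 3 Affymetrix array sets, A, B and C, which gave 36 arrays. The labels do not tie pools of different segments to the same mice, and p-values measure the spread between these pools. The array of duodenum 3 on array set C has jejunum in its source name and was kept as duodenum by its title, which concerns only the 4 members read on C.

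The values are intensities that the authors had scaled, and array medians ranged from 48.7 to 75.2 for array set A, from 85.7 to 110.2 for B and from 85.45 to 104.5 for C. Some regional markers were high where the label placed them. Pdx1 was at 97.0 in the duodenum against 10.2 or less elsewhere, and Fabp6 at 10660 in the ileum against 116 or less elsewhere. Car1 was at 14650 in the colon against 43.7 or less elsewhere. Of 9 regional markers measured, 3 had their highest mean in the duodenum, 1 in the jejunum, 4 in the ileum and 1 in the colon. Hoxd13, listed as a colon marker, was not highest there. Jejunum 2 and 3 and ileum 1 and 3 stood apart with a low signal of the 18S ribosomal RNA controls, at 80.1 to 684.5 on array set A against 2712 to 10420 in the other 8. The 3′ to 5′ ratio of actin, a sign of RNA integrity, on A ranged from 1.41 to 1.84 for duodenum, 1.28 to 1.55 for jejunum, 1.14 to 1.20 for ileum and 1.30 to 1.43 for colon. The part of both measures in the results below was not tested, beyond fits that block or leave out the 4 samples.

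Of the 86 members, 12 differed between segments in at least 1 test, and the other 74 passed none. A member was called when limma's moderated test on log2(intensity + 16), adjusted by the Benjamini-Hochberg method over all 36701 probe sets, gave an adjusted p below 0.05. Any difference among the segments was called for 9 of 86 members, where 13.7% of all genes were called. Colon against the small-intestinal mean, the mean of duodenum, jejunum and ileum, gave 8 higher members, with 6.92% of all genes higher, and 1 lower, with 4.96% lower. Colon against ileum gave 2 higher and 0 lower, with 2.49% and 2.74% of all genes. Ileum against jejunum gave 2 higher and 0 lower, with 2.46% and 2.02%. Jejunum against duodenum gave 0 higher and 1 lower, with 0.639% and 0.858%. All of these member shares were small counts close to the share over all genes, so the group as a whole is described and not called different. At an unadjusted p below 0.05 by limma, 16 members differed between jejunum and duodenum and 20 between ileum and jejunum. There were 11 between colon and ileum and 26 between colon and the small-intestinal mean. In the same order, 2298, 2964, 2612 and 3970 of all 15964 genes passed.

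Over the 86 members the median log2 difference was -0.18 from duodenum to jejunum, 0.24 from jejunum to ileum, 0.20 from ileum to colon and 0.25 between colon and the small-intestinal mean. The same medians over all genes were -0.05, 0.08, 0.03 and 0.05. The jejunum was the lowest segment for 41 members, and the colon was the highest for 38, with 23 highest in the ileum, 14 in the duodenum and 11 in the jejunum. Of all 15964 genes 5270 were highest in the colon, 3700 in the ileum, 3521 in the duodenum and 3473 in the jejunum. The lowest segment was not counted over all genes. Colon lay above the small-intestinal mean for 60 of 86 members (69.8%) and for 55.2% of all genes. By array set these were 49 of 62 members on A, 9 of 20 on B and 2 of 4 on C. The matching counts over all genes were 4901 of 8251, 2847 of 5423 and 1067 of 2290, so the excess lay on A. Centring the arrays on their medians moved the all-gene median from 0.08 to -0.13 between jejunum and ileum. The members' median then lay 0.16 above it, as it did with the authors' scaling. Centring shifts all probe sets of an array alike, so it could hardly change this distance. Without the 4 samples of low 18S signal 1 jejunum and 1 ileum pool remain, jejunum 1 and ileum 2, and between these single pools the members' median was -0.02, with 0.05 over all genes. The median for colon against the small-intestinal mean was 0.28 in those 8 samples, against 0.01 over all genes.

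**Figure D1:**
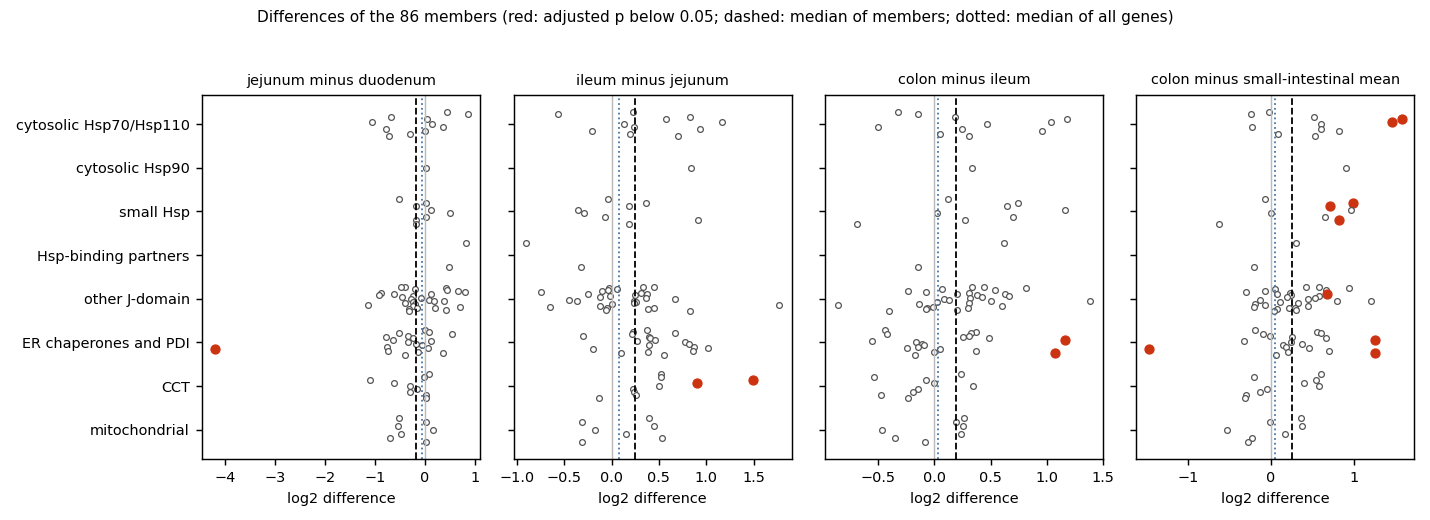
Log2 difference of each of the 86 members (points, grouped by role on the vertical axis) in 4 comparisons, with called members in red, the members' median dashed and the all-gene median dotted. The called points lie to the right for colon against the small-intestinal mean, with the exception of Pdia2 at -1.47, which also stands alone at -4.20 for jejunum against duodenum.

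Signal limits what can be read for part of the group. In 59 members the mean lay above the array median in all 4 segments, in 20 it lay below in all 4, and 7 were in between. The dim members include Calr, the calcium-binding lectin chaperone of the ER, whose single probe set read 1.30 to 25.1 over the 12 samples, and Hspb1 (Hsp27), whose representing probe set read 2.50 to 45.8. A second Hspb1 probe set, on array set C, read 32 to 261.5 and was not called. Low readings of such probe sets do not show that the transcript was absent.

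The stress-inducible Hsp70 genes were highest in the colon. Hspa1a, one of a pair of nearly identical genes for the Hsp70 that cells make under heat or other stress, read 78.4, 17.8 and 138.5 in the 3 duodenum pools, 67.5, 43.2 and 91.9 in the jejunum, 82.8, 89.7 and 152.7 in the ileum and 299, 157.5 and 360.3 in the colon. All 3 colon pools lay above all 9 small-intestinal pools, and the log2 difference was 1.58 (SE 0.39, adjusted p 0.018 by limma), or 2.98-fold on that scale. Hspa1b, the other gene of the pair, read 81.4, 75.9 and 234.5 in the duodenum, 69.8, 17.5 and 71.0 in the jejunum, 115.3, 121.1 and 139 in the ileum and 262.2, 217.7 and 354.1 in the colon. Here 1 duodenum pool overlapped the colon, and the colon was higher by 1.46 (SE 0.34, adjusted p 0.0121 by limma), or 2.75-fold. Transcripts of this pair are so alike that their probe sets may each read both genes, so the pair counts as 1 observation. Both calls were lost without colon 1 (adjusted p 0.105 and 0.0554 by limma) or without colon 3 (0.143 and 0.104), and in the 8 samples with high 18S signal (0.0787 and 0.0519). That of Hspa1b was also lost with 18S class as a block (0.055), and the differences in these fits were 1.28 to 1.63. A second, dim Hspa1a probe set on array set C gave 0.07. Duodenum 3 was the highest duodenum pool for both genes, and jejunum 2 was the lowest jejunum pool.

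None of the other 9 cytosolic Hsp70 and Hsp110 members was called. Hspa8, the constitutive Hsp70 of the cytosol, read 1877, 1172 and 1463 in the duodenum, 1377, 1201 and 1058 in the jejunum, 1762, 800.6 and 1875 in the ileum and 1270, 1266 and 1843 in the colon. The segments overlapped widely, and colon against the small-intestinal mean was 0.09 (SE 0.23). Hspa12a, a distant relative of Hsp70, read 168.7, 103.7 and 236.7 in the duodenum, 255.8, 224 and 194.7 in the jejunum, 253.6, 365 and 196.6 in the ileum and 245.4, 211.5 and 172.4 in the colon, with all segments overlapping. Over the 9 uncalled members colon against the small-intestinal mean ran from -0.24 (Hspa12b) to 0.82 (Hspa4l), with 6 above 0, beside 55.2% of all genes. Hspa4, an Hsp110-type partner that exchanges the nucleotide of Hsp70, had the lowest mean in the jejunum, 110.4, against 192.2 in the duodenum, 226.3 in the ileum and 259.1 in the colon (adjusted p 0.0749 for any difference by limma). Hsph1, the heat-inducible Hsp110, ranged from 90.3 to 172.7 in the jejunum and from 168.1 to 410.5 in the colon, and its segments all overlapped.

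Hsp90aa1, the inducible cytosolic Hsp90, had the widest spread between pools of the members on array set A. It read 421.4, 130.4 and 231.6 in the duodenum, 418.7, 255.6 and 122.5 in the jejunum, 840.1, 138.9 and 696.4 in the ileum and 776.2, 348.1 and 638.8 in the colon. The colon lay 0.90 above the small-intestinal mean (SE 0.47, adjusted p 0.349 by limma), and pools of the ileum alone differed 6.05-fold. Its residual SD of 0.934 compares with a median of 0.346 over all genes of array set A.

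Heat shock elements upstream of the start site are printed for Hspa1a, Hspa1b and Dnajb6, which were called higher in the colon. They are also printed for Hspd1 and Hspe1, which share one. Cct2, called only for any difference, had an upstream match that is not printed. RefSeq promoters (build GRCm38.p6, 250 bases before to 50 after the start site) were matched for 73 of 86 members. The element was searched on both strands as 3 units, GAANNTTCNNGAA, and as the 2 units GAANNTTC that are contained in it. The capitals mark the match, read along the strand of the gene: the 2-unit match in Hspa1a (chr17:34972243-34972270, minus strand) and Hspa1b (chr17:34959325-34959352, minus strand), and the 3-unit match in Dnajb6 (chr5:29735842-29735874, plus strand), Hspd1 (chr1:55088049-55088081, minus strand) and Hspe1 (the same bases, plus strand). In the latter pair a second match overlaps the one shown, and in Hspe1 the capitals are the reverse complement of the motif.
Hspa1a: gaaactgctgGAAGATTCctggccccaa
Hspa1b: gaaactgctgGAAGATTCctggccccaa
Dnajb6: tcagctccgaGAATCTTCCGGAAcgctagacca
Hspd1: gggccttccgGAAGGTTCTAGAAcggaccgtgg
Hspe1: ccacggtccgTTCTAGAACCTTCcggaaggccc
The Hspa1a and Hspa1b windows are the same, and their whole promoters shared 296 of 300 bases. The 3-unit element was found in 4 of the 73 members with a promoter (5.48%), Dnajb6, Hspd1, Hspe1 and Hsph1, and in 0.662% of all genes. The 2-unit element was found in 15 members (20.5%) and in 9.04% of all genes. Of the 12 called members it was found in Hspa1a, Hspa1b, Dnajb6, Hspb8 and Cct2, and Cct4 and Hspb2 had no promoter in the table. A match describes these letters only and is not evidence of a working site.

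Small heat shock proteins hold unfolding proteins without using ATP. Of the 8 members placed in this class by their symbol alone, 3 were called higher in the colon. In that comparison 6.92% of all genes were higher. Hspb8, the partner of Bag3 in the removal of misfolded protein, read 123.2, 171.3 and 130.9 in the duodenum, 103.9, 133.6 and 131.4 in the jejunum, 184.3, 355.3 and 222.8 in the ileum and 363, 241.5 and 305.4 in the colon. It stepped up in the distal segments: every ileum and colon pool lay above every duodenum and jejunum pool, while ileum and colon overlapped. Colon against the small-intestinal mean was 0.83 (SE 0.20, adjusted p 0.0194 by limma), and ileum against jejunum, at 0.92 (SE 0.25), missed the threshold (adjusted p 0.0674 by limma). Hspb2, known from heart and skeletal muscle, read 123.0, 125.4 and 103.9 in the duodenum, 95.2, 87.3 and 123.8 in the jejunum, 122.7, 96.1 and 134.9 in the ileum and 170.5, 161.8 and 255.1 in the colon. Colon pools lay above all others, by 0.71 (SE 0.20, adjusted p 0.0413 by limma), and another, dim Hspb2 probe set on array set A was called in the same direction at 1.02. The other one, on array set C, gave 1.09 without passing (adjusted p 0.152 by limma). A second, dim Hspb8 probe set on array set A gave 0.25 (0.481). Hspb11, now known as the intraflagellar transport protein Ift25, read 7.6, 13.3 and 12.5 in the duodenum, 16.6, 9.6 and 8.2 in the jejunum, 15.5, 15.7 and 27.0 in the ileum and 63.1, 21.1 and 53.5 in the colon. Colon 2 overlapped the ileum, and colon lay 1.00 above the small-intestinal mean (SE 0.25, adjusted p 0.0205 by limma), with all 4 means below the array median.

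The calls of these small heat shock proteins were close to the threshold. Hspb8 and Hspb11 were lost without colon 1 (adjusted p 0.153 and 0.151 by limma) or without colon 3 (0.0984 and 0.128), and with 18S class as a block (0.0767 and 0.0605). With arrays centred on their medians or quantile normalized, Hspb8 (0.0871 and 0.0542) and Hspb2 (0.184 and 0.118) were lost. Hspb2 was lost in 9 of the 12 fits that left out 1 sample, among them each duodenum pool and each colon pool, with an adjusted p of up to 0.314 without colon 3, and its difference stayed between 0.52 and 0.82. The 8 markers of smooth muscle rose in the same comparison in 8 of 8 cases, with a summed level of 6092 to 7185 in the duodenum, 6114 to 9260 in the jejunum, 10530 to 13600 in the ileum and 28520 to 32760 in the colon. The part of muscle in these calls was not tested, and in whole tissue fewer cells of a type and less RNA per cell cannot be told apart.

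The remaining 5 small heat shock proteins were not called. Hspb6 (Hsp20), which is abundant in smooth muscle, read 895, 1059 and 810.9 in the duodenum, 949.8, 1403 and 1692 in the jejunum, 852.5, 1318 and 1094 in the ileum and 1057, 1138 and 1079 in the colon. Its difference between colon and the small-intestinal mean was 0.00 (SE 0.18), beside the rise of all 8 smooth muscle markers. Hspb7, a small heat shock protein of heart and other muscle, read 253.8, 397.2 and 411.1 in the duodenum, 376.4, 268.2 and 420.7 in the jejunum, 214, 443.3 and 381.4 in the ileum and 551.6, 516.1 and 576.2 in the colon. All colon pools lay above the other 9, and the difference of 0.65 (SE 0.23) had an adjusted p of 0.120 by limma. The other 3, Hspb1, Hspb3 and Hspb9, lay between -0.63 and 0.97 with widely spread pools.

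**Figure D2:**
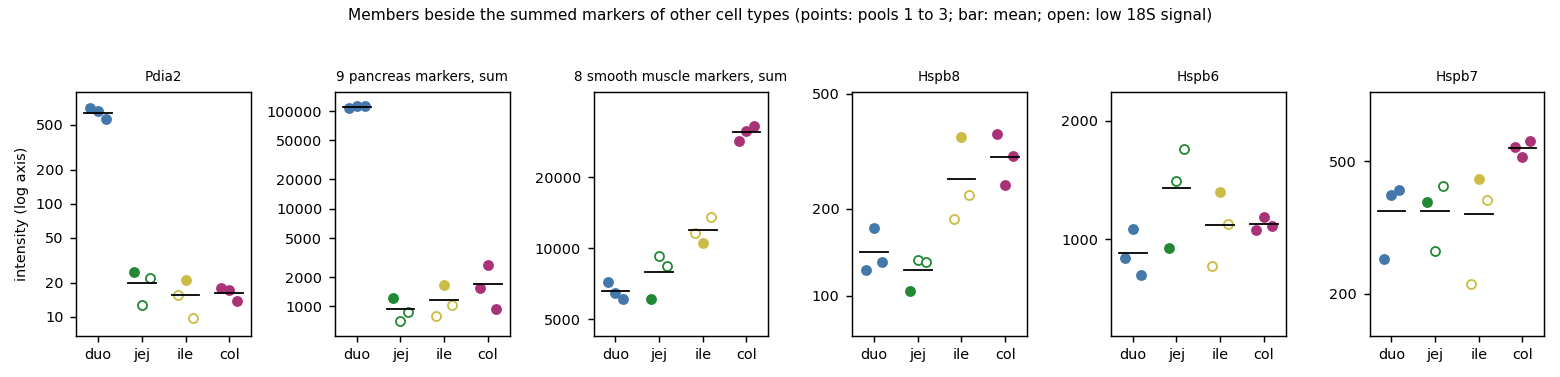
Intensity (log axis) of Pdia2, Hspb8, Hspb6 and Hspb7 beside the summed intensity of 9 exocrine pancreas markers and of 8 smooth muscle markers, by segment (points are pools, bars are means, open points have low 18S signal). Pdia2 and the pancreas markers are high in the 3 duodenum pools only, and Hspb6 differs by 0.00 between colon and the small-intestinal mean, while the smooth muscle markers sum to 28520 to 32760 in the colon and 6092 to 13600 elsewhere.

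Of the 29 other J-domain proteins 1 was called. Dnajb6, which keeps aggregation-prone proteins soluble, read 474.4, 369.2 and 478.4 in the duodenum, 312.4, 323.1 and 214.7 in the jejunum, 450.3, 296 and 364.9 in the ileum and 554.4, 558.3 and 611.7 in the colon. The colon pools were close together and above all 9 others, by 0.67 (SE 0.16, adjusted p 0.0169 by limma). The call was lost without any 1 of the colon pools (adjusted p 0.0665, 0.0671 and 0.108 by limma), where the difference stayed between 0.63 and 0.70, and with arrays centred on their medians (0.162). A second probe set on array set A gave 0.66 without passing (adjusted p 0.0561 by limma), and the third, on array set C and dim throughout, gave -0.05.

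The 28 uncalled J-domain members lay between -0.30 and 1.21 for colon against the small-intestinal mean, with 22 of 28 above 0. Of all genes 55.2% lay above 0 in that comparison. Dnajc30, a J-domain protein of mitochondria, read 1406, 1195 and 1283 in the duodenum, 1519, 2552 and 2395 in the jejunum, 1188, 1473 and 1370 in the ileum and 1341, 1494 and 1171 in the colon. It was highest in jejunum 2 and 3, both of the low 18S group, and its jejunum against duodenum difference of 0.70 (SE 0.21) was not called (adjusted p 0.157 by limma). Dnajc8, a J-domain protein of the nucleus, read 791.4, 661.4 and 623.5 in the duodenum, 648.2, 1271 and 951.5 in the jejunum, 958.1, 767.6 and 946.8 in the ileum and 1021, 985.7 and 1051 in the colon. The same 2 jejunum pools were its highest there, and it was not called. Dnajc18 lay 1.21 higher in the colon (SE 0.41, adjusted p 0.0993 by limma), with 288, 264.7 and 241.6 there and 1 high pool each in jejunum and ileum, 276.8 and 224.3. The heat-inducible Hsp40 Dnajb1 and its relative Dnaja1 were not called, at 0.04 and 0.42. Dnajc5, a J-domain protein of secretory vesicles, was not called by its probe set on array set A, which the rule takes first. Of its 4 probe sets on array set B, all outside the rule, 2 were called for ileum against jejunum, at 1.45 (adjusted p 0.0234 by limma) and 1.02 (0.0396). Their means were lowest in the jejunum, 357.8 and 125.4, and 912.9 and 269.7 in the ileum.

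Among ER members Pdia2 had the largest difference of the 86. Pdia2 is the disulfide isomerase of the pancreas, and it read 693.9, 662.2 and 558.8 in the duodenum, 24.8, 12.8 and 22.2 in the jejunum, 15.6, 21.2 and 9.7 in the ileum and 18, 17.4 and 13.7 in the colon. The duodenum stood apart from all other pools, and jejunum minus duodenum was -4.20 (SE 0.38, adjusted p 1.01e-05 by limma), or 18.3-fold on that scale. Its lower value in colon against the small-intestinal mean (-1.47, SE 0.31, adjusted p 0.0059 by limma) came with colon readings inside the range of the jejunum and ileum. Both calls held in each of the 12 fits that left out 1 sample. The 9 exocrine pancreas markers summed to between 108200 and 112000 in duodenum pools and between 716.7 and 2652 in all others, and 8 of the 9 were lower in the jejunum. The part of pancreatic tissue in the Pdia2 signal was not tested. The probe set is of the kind that can bind related transcripts, and a second one, on array set C, read 7.40 to 47.7 over all samples and was not called.

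The other 2 called ER members were both enzymes of disulfide handling and both rose in the colon. Pdia5, a disulfide isomerase, read 137, 83.0 and 93.8 in the duodenum, 146.5, 133.5 and 130.6 in the jejunum, 150.6, 129.1 and 164.6 in the ileum and 276.8, 336.8 and 375.7 in the colon. Its means were 104.6, 136.9 and 148.1 from duodenum to ileum. Neither jejunum against duodenum nor ileum against jejunum was called, and ileum against duodenum was not tested. In the colon Pdia5 was 1.26 above the small-intestinal mean (SE 0.18, adjusted p 0.000256 by limma), or 2.39-fold. It was also called against the ileum alone (1.07, SE 0.22, adjusted p 0.0114 by limma). Dnajc10 (ERdj5), which reduces disulfides of proteins bound for degradation, read 209.3, 162.8 and 166.9 in the duodenum, 117.5, 112.2 and 99.4 in the jejunum, 167.1, 116.6 and 193.8 in the ileum and 388.4, 303.7 and 424 in the colon. The colon was 1.25 higher (SE 0.18, adjusted p 0.000272 by limma), or 2.38-fold, and 1.16 above the ileum (SE 0.22, adjusted p 0.0062).

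For both genes the 3 colon pools lay above all 9 small-intestinal pools, and the calls against the small-intestinal mean held in each of the 12 fits that left out 1 sample. Against the ileum, the Pdia5 call was lost without colon 2 (adjusted p 0.0576 by limma) or colon 3 (0.0803), while that of Dnajc10 held in all 12. The Pdia5 call was also lost in the 8 samples with high 18S signal (0.0713), where the ileum has 1 pool. A second Dnajc10 probe set, on array set B, read 10.4 to 112.9 over the 12 samples, with colon against the small-intestinal mean at -0.076, so the probe sets of this gene disagree. Of 8 goblet cell markers 3 were higher and 2 lower in the same comparison, with a summed level of 59940 to 85240 in the colon and 44060 to 73060 in the small intestine, where their ranges overlap. Muc2, the secreted mucin, was among the higher ones, with 18510 to 27640 in the colon and 1943 to 4682 in the small intestine. Tff3 was among the lower ones, with 7373 to 8870 in the colon and 11950 to 21720 in the small intestine. The part of goblet cells in the rise of Pdia5 and Dnajc10 was not tested.

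**Figure D3:**
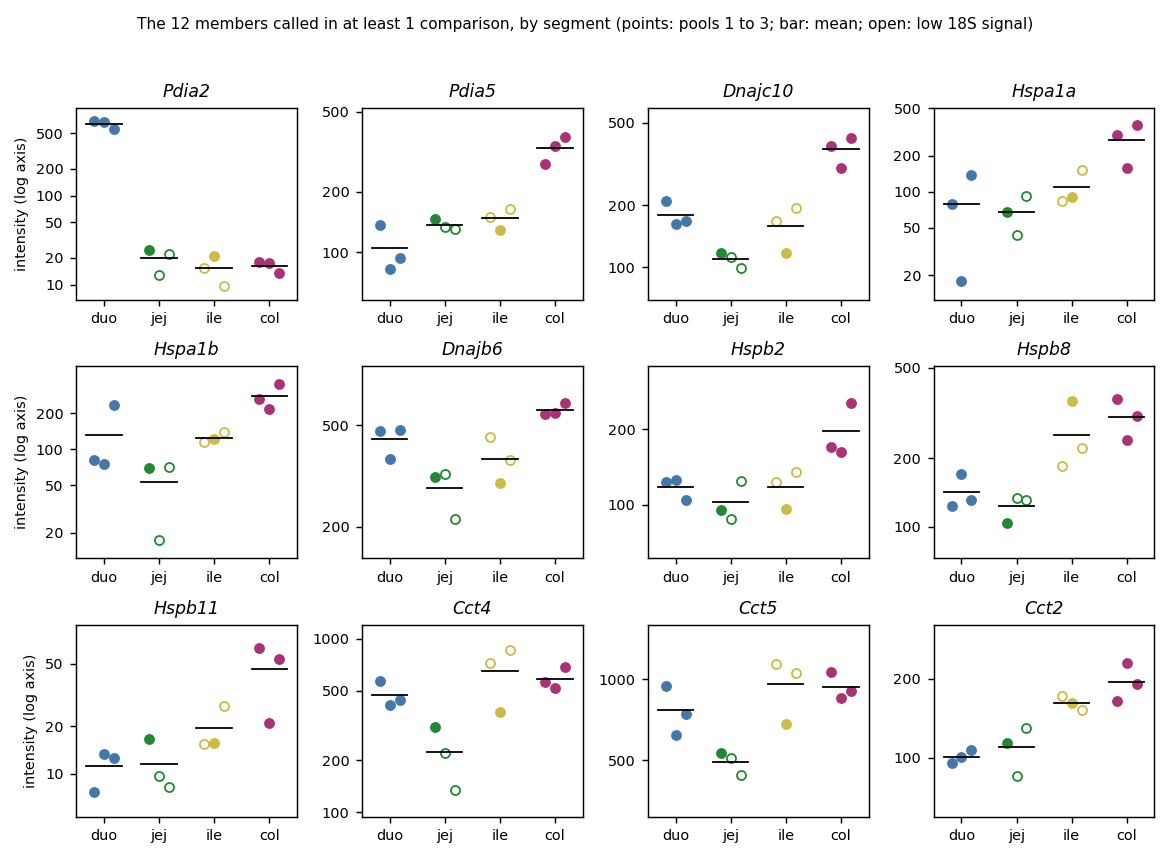
Intensity (log axis) of the 12 members called in at least 1 comparison, by segment, with each pool as a point, the mean as a bar and open points for the 4 samples with low 18S signal. Pdia5, Dnajc10, Hspa1a, Dnajb6 and Hspb2 show all 3 colon pools above the other 9, and Cct4 and Cct5 are lowest in the jejunum.

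The main folding machinery of the ER was not called. Hspa5 (BiP), the Hsp70 of the ER and sensor of its unfolded protein, read 1370, 801.8 and 882.3 in the duodenum, 904.6, 530.2 and 406.1 in the jejunum, 1446, 664.4 and 1286 in the ileum and 1398, 731.7 and 881.6 in the colon. The jejunum had the lowest mean, 613.6, and the ileum the highest, 1132, but the difference of 0.87 (SE 0.33) had an adjusted p of 0.231 by limma. Hsp90b1 (Grp94), the Hsp90 of the ER, read 1028, 739.7 and 891.5 in the duodenum, 1129, 851.5 and 474.6 in the jejunum, 1737, 1048 and 1417 in the ileum and 1391, 1346 and 1094 in the colon, with ileum against jejunum at 0.82 (SE 0.26, adjusted p 0.133 by limma). Over the 16 uncalled ER members, ileum lay above jejunum for 15, from -0.30 to 1.02 with a median of 0.40, and ileum lay above jejunum for 57.0% of all genes. For all 86 members, and not for these 16 alone, the median of this comparison was -0.02 between the single pools jejunum 1 and ileum 2. Colon against ileum had a median of -0.10 in the same 16, with 6 above 0, beside 53.3% of all genes.

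Pdia3, which works with calnexin on glycoproteins, and Dnajb11 (ERdj3), a partner of BiP, had their highest means in the colon, 863.2 and 418.2, and their lowest in the jejunum, 377.6 and 203.7. They lay 0.70 and 0.60 above the small-intestinal mean (adjusted p 0.107 and 0.0932 by limma). P4hb, the first known disulfide isomerase, read 122.9 to 620.2 in the jejunum and 411 to 773 in the ileum and was not called. Of 7 plasma and B cell markers 3 were called higher in ileum than jejunum, with summed levels of 20080 to 31270 and 17780 to 27290, and their part in the uncalled ER values was not tested.

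ER stress elements are shown for all 6 members that held one, because they include BiP and Grp94, which were among the members with the lowest jejunum mean but were not called. Pdia6 is a disulfide isomerase, and Dnajc3 is a J-domain protein of the ER that also inhibits the kinase PERK. The element was searched as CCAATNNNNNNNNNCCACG on both strands, and the capitals mark the match, in Calr and the second Grp94 element as its reverse complement. Positions are chr2:34772015-34772053 plus strand for Hspa5, chr10:86705628-86705666 and chr10:86705523-86705561 minus strand for Hsp90b1, chr12:17266481-17266519 plus strand for Pdia6, chr11:50325790-50325828 minus strand for Canx, chr14:118937817-118937855 plus strand for Dnajc3 and chr8:84847065-84847103 minus strand for Calr, all in GRCm38.p6 from RefSeq.
Hspa5: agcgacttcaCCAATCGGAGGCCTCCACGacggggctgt
Hsp90b1, first: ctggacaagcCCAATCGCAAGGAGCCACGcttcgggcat
Hsp90b1, second: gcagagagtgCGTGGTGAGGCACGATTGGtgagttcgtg
Pdia6: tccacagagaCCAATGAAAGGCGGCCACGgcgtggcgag
Canx: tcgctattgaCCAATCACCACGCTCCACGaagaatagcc
Dnajc3: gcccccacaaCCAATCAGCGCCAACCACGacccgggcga
Calr: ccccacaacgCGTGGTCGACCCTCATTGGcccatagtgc
The element was in 6 of 73 members with a promoter (8.22%) and in 37 of 27025 genes (0.137%). None of the 6 was called in any comparison, and neither Pdia5 nor Dnajc10 nor Pdia2 held it in this window. Hspa5, Hsp90b1, Pdia6 and Dnajc3 had their highest mean in the ileum, and Canx, the membrane-bound lectin chaperone, in the colon.

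**Figure D4:**
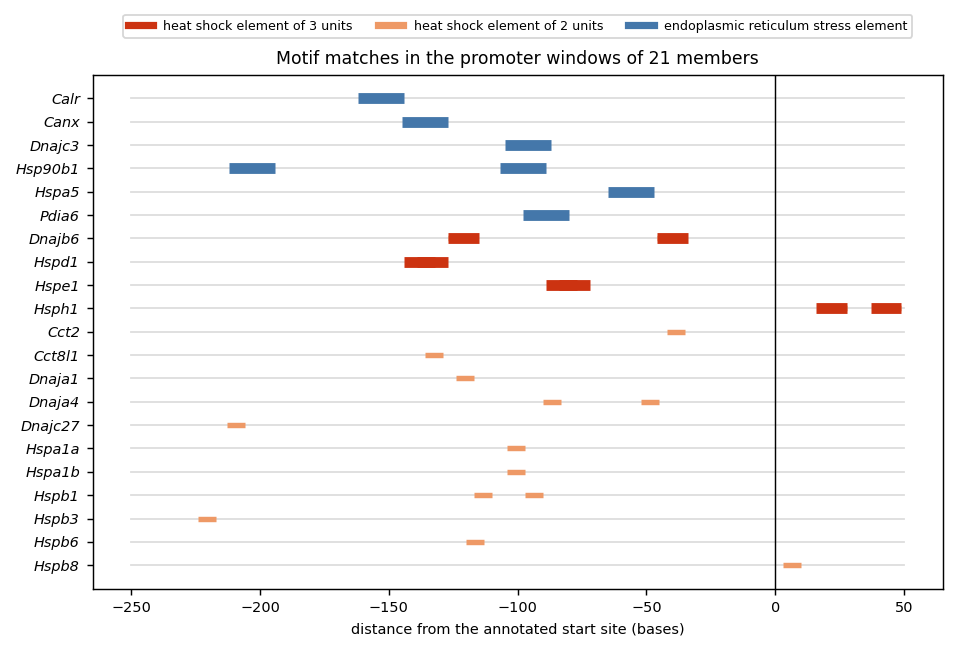
Positions of the motif matches in the promoter windows of 21 members, as distance in bases from the annotated start site, with the 3-unit and 2-unit heat shock elements and the ER stress element in different colours. All ER stress elements lie upstream of the start site, while the elements of Hsph1 and Hspb8 lie downstream, and Dnajb6 and Hsph1 show the same match from 2 annotated start sites.

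Of the 9 CCT genes 3 were called for any difference, with 13.7% of all genes called. Of these, 2 were higher in ileum than in jejunum, with 2.46% of all genes higher. Cct4, a subunit of the ring, read 567.7, 414.8 and 442.3 in the duodenum, 308.2, 221 and 134.6 in the jejunum, 722.6, 380.3 and 861.3 in the ileum and 566.1, 518.2 and 685 in the colon. The jejunum lay below all other pools, and the ileum was 1.49 above it (SE 0.30, adjusted p 0.0133 by limma), or 2.81-fold. Cct5, another subunit, read 945.3, 623.1 and 742.8 in the duodenum, 531.9, 510.1 and 440.1 in the jejunum, 1142, 680.9 and 1056 in the ileum and 1062, 849.5 and 904.9 in the colon. All 3 jejunum pools were again below the other 9, with the ileum 0.91 higher (SE 0.20, adjusted p 0.027 by limma), or 1.87-fold.

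Among the 8 samples with high 18S signal, where each of these segments has 1 pool, the difference was 0.29 for Cct4 and 0.35 for Cct5, and neither was called. The Cct4 call was lost without jejunum 3, ileum 1 or ileum 3 (adjusted p 0.0687, 0.0626 and 0.084 by limma), and that of Cct5 without jejunum 2, jejunum 3, ileum 1 or ileum 3 (0.0628, 0.114, 0.123 and 0.131). Over all 12 fits that left out 1 sample the differences stayed at 1.20 to 1.83 for Cct4 and 0.77 to 1.13 for Cct5. Jejunum and ileum hold the same number of low 18S pools, so 18S class as a block could not change the difference between them. In that fit both remained called. With arrays centred on their medians neither was (0.0559 and 0.249), and Cct5 was lost without the intensity trend (0.0785). A second, dim Cct5 probe set on array set A gave -0.43 for the same comparison without passing.

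The rest of the ring did not follow one pattern. Cct2 passed only the test for any difference (adjusted p 0.0499 by limma) and read 95.1, 100.4 and 107.4 in the duodenum, 113.6, 85.1 and 129.5 in the jejunum, 172.2, 161 and 152.1 in the ileum and 163.9, 229.6 and 190.6 in the colon. Its distal pools all lay above its proximal pools. Cct6a lay highest in the colon, 271.4, 248.2 and 258.4, above all 9 others, and did not pass against the small-intestinal mean (0.58, SE 0.17, adjusted p 0.05002 by limma). Cct7 read 1017, 647.3 and 845 in the duodenum, 593.5, 633 and 782.9 in the jejunum, 863.8, 625.1 and 905.6 in the ileum and 791, 713.8 and 577.3 in the colon, with all segments overlapping. Cct3 was highest in the ileum, 422.6 to 612.8, and read 327.1 to 410 elsewhere. Subunits of one ring are present in equal copies in the complex, but these probe sets differed in direction between ileum and colon: Cct2 and Cct6a had positive differences of 0.24 and 0.35, and Cct3 and Cct8 negative ones of -0.54 and -0.47, none of them called.

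None of the 7 members classed as mitochondrial chaperones was called by limma, with 2 at an unadjusted p below 0.05 for any difference. Of all 15964 genes 4473 passed that unadjusted threshold. Dnajc30, also of mitochondria, was counted with the other J-domain proteins and is not among the 7. Hspd1 (Hsp60), the barrel of the folding chamber, read 2768, 2314 and 2312 in the duodenum, 2173, 1407 and 1127 in the jejunum, 2588, 1702 and 2398 in the ileum and 2565, 2232 and 874.9 in the colon. One colon pool, colon 3, was the lowest of all 12. Hspe1 (Hsp10), its lid, whose start site faces that of Hspd1 across a shared promoter, read 1590, 1195 and 1472 in the duodenum, 1416, 1658 and 1241 in the jejunum, 1349, 923.6 and 1229 in the ileum and 1068, 1022 and 1176 in the colon. Hspe1 did not share the low reading of Hspd1 in colon 3. From jejunum to ileum Hspd1 had a difference of 0.53 and Hspe1 of -0.31, with standard errors of 0.33 and 0.17. Hspa9 (mortalin), the Hsp70 of the matrix, had means of 751.9, 538.8, 593.5 and 705 from duodenum to colon. Over the 7, colon against the small-intestinal mean ran from -0.53 (Dnajc28) to 0.37 (Dnajc15), with 3 above 0, beside 55.2% of all genes.

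Neither Hsp-binding partner was called by limma, with 0 at an unadjusted p below 0.05 for any difference, a threshold that 4473 of all 15964 genes passed. Hspbp1, which makes Hsp70 release its nucleotide, read 208.5, 194.9 and 116.3 in the duodenum, 214.7, 178.4 and 368.1 in the jejunum, 234.7, 161 and 182.7 in the ileum and 179.3, 139 and 197.3 in the colon. Hspbap1, a binding partner of Hspb1, read 93.6, 278.7 and 390 in the duodenum, 352.7, 414.2 and 448.6 in the jejunum, 250.7, 280.7 and 127.6 in the ileum and 365.2, 318.9 and 307.6 in the colon. It was read on array set C, where duodenum 3, the array with the doubtful name, gave the 390. Ileum lay below jejunum in every pool, at -0.90 (SE 0.44, adjusted p 0.400 by limma).

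Spread between pools of one segment differed among the members. On array set A the residual SD had a median of 0.361 over the 62 members there and 0.346 over all genes, but 0.515 over the 9 Hsp70 and Hsp110 members and 0.266 over the 8 CCT members. Hspa5 and Hspd1 stood at 0.518 and 0.512, and Hspe1 and Hspa9 at 0.210 and 0.221. In each segment 1 pool was often the highest or lowest, though not for all classes. Ileum 2 was the lowest of the 3 ileum pools for 35 of the 62 members (56.5%) and for 36.9% of all genes on A, and for 10 of the 14 ER members. Duodenum 1 was the highest duodenum pool for 33 of 62 (53.2%) against 29.2% of all genes, and for 11 of the 14 ER members. It was the highest for only 5 of the 19 other J-domain members and 0 of the 4 small heat shock proteins on A, and the lowest for 8 and 3 of them. Ileum 2 was the highest ileum pool for 2 of those 4 small heat shock proteins. Colon 2 was the lowest colon pool for 33 of 62 (53.2%) against 34.5%. Jejunum 1 was the highest jejunum pool for 35 of 62 (56.5%) against 47.8% of all genes. Ileum 2 and jejunum 1 are the pools with high 18S signal in their segments.

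**Figure D5:**
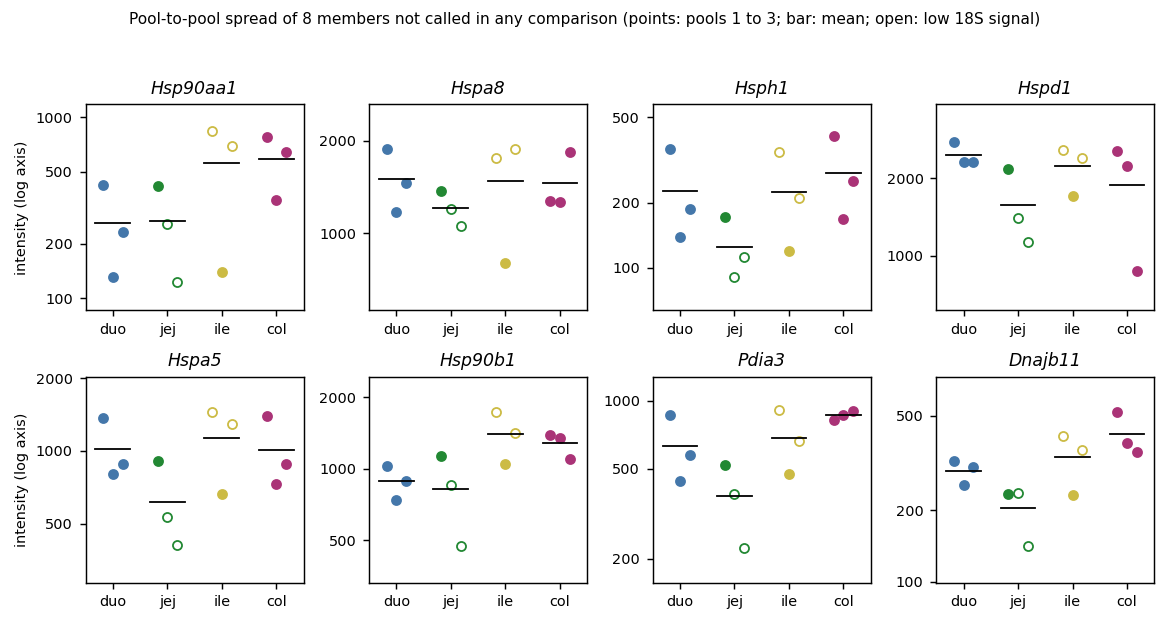
Intensity (log axis) by segment of 8 members not called in any comparison, with pools as points, means as bars and open points for low 18S signal; 5 were named by rule, and Hsph1, Pdia3 and Dnajb11 were chosen after their values were seen. Ileum 2, the filled ileum point, is the lowest ileum pool in all 8, and Hsp90aa1 spans 138.9 to 840.1 within the ileum.

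Other genes of the same pathways were counted from lists of known members. Their counts stand beside shares over all genes of 13.7% called for any difference, and of 6.92% higher and 4.96% lower in colon than in the small-intestinal mean. Ileum against jejunum had 2.46% higher, and jejunum against duodenum 0.858% lower. Of 20 heat shock factors and cytosolic co-chaperones 2 were called for any difference. Fkbp5, an Hsp90 co-chaperone induced by glucocorticoids, had means of 115.1, 90.8, 221.5 and 648.8 from duodenum to colon, and the colon was 2.17 above the small-intestinal mean (SE 0.20, adjusted p 2.32e-06 by limma). Bag1, a nucleotide exchange factor of Hsp70, was lower in jejunum than in duodenum by 0.96 on the log2 scale (means 247.4 and 486.9, adjusted p 0.0487 by limma) and higher in the colon by 0.61 (0.0452).

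Of 23 genes of the unfolded protein response 5 were called for any difference. Against the small-intestinal mean 2 were higher in the colon and 3 lower, so the list had no single direction. Ern2, the sensor IRE1 beta found in mucus-secreting epithelium, had colon readings of 274.7, 277.9 and 299.7 and small-intestinal readings of 11.4 to 87.0 (2.59, SE 0.41, adjusted p 0.000619 by limma). Sec61b, a subunit of the ER translocon, was higher in ileum than jejunum by 0.83 (readings of 896.1 to 1095 against 415.9 to 726.7, adjusted p 0.0263 by limma). Xbp1, the transcription factor of the response, was not called, at 0.12 (SE 0.13) for colon against the small-intestinal mean.

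Of 13 further enzymes of oxidative and collagen folding 5 were called for any difference, and 3 were higher and 1 lower in the colon. Agr2, a disulfide isomerase needed for mucin, read 6752, 4917 and 5679 in the colon and 872.5 to 2791 in the small intestine (1.79, SE 0.20, adjusted p 2.88e-05 by limma), and it also counts among the goblet cell markers. Ero1b, the oxidase that recharges disulfide isomerases, read 230.6, 235.9 and 259.4 in the duodenum and 48.5 to 154 elsewhere, and was lower in the colon (-0.93, SE 0.20, adjusted p 0.00849 by limma). Its duodenal high falls in the same pools as that of Pdia2 and of the pancreas markers, whose part was not tested. None of 9 further mitochondrial folding and protease genes was called by limma. At an unadjusted p below 0.05 for any difference there was 1, beside 4473 of all 15964 genes. The smallest values were those of Grpel2 (adjusted p 0.0554 by limma) and Tomm70a (0.395). Of 10 prefoldin and further chaperonin genes 1 was called, Vbp1, a prefoldin subunit that passes actin and tubulin to the CCT ring. It had means of 92.8, 54.2, 148.8 and 177.7 from duodenum to colon, with ileum 1.27 above jejunum (adjusted p 0.0405 by limma), and the next smallest p was that of Pfdn1 (adjusted p 0.252), which was dim.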

How the data were processed

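The deposited tables hold 1 intensity value per probe set on a linear scale, scaled by the authors: each array's trimmed mean was 200 to 200.2. The software behind it was not given in the sources used here, and no detection calls were used. From these, log2(intensity + 16) was fitted with limma 3.58.1 in R 4.3.3, each array set on its own, with 1 mean per segment and moderated variances with an intensity trend. P-values were 2-sided and adjusted over 36701 probe sets (198 controls left out), with calls below 0.05. The offset shrinks differences of dim genes. Symbols came from platform annotation: 29131 probe sets had 1 symbol, 724 several and 6846 none. All-gene shares use 15964 genes represented like the members. The members and lists were chosen with earlier results of these data known. By rule, every called member is named, values of every sample are given for the members with the 12 largest called differences and the 2 brightest of each class, and of each list the 2 genes with the smallest p of the any-difference test are named. Other genes named with values were chosen after these were seen. Replicate numbers were not taken to pair samples, since no label says so and deviations of equal-numbered samples correlated from -0.36 to 0.36, -0.18 to 0.19 and -0.26 to 0.22 on array sets A, B and C, although those of ileum and colon were all above 0. The fit was tested on simulated data. The number of arrays limits the precision.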

Additional observations from a re-analysis of the deposited data

How the results depend on the processing

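Of the 14 calls of members in a contrast, all 14 kept their direction and their side of the threshold with an offset of 1 or 64 and without the array of duodenum 3 on array set C. All 13 that could be fitted did so with a filter on low values, 12 with quantile normalization, 9 with arrays centred on their medians, 11 with 18S class as a block and 6 in the 8 samples with high 18S signal, which hold 1 jejunum and 1 ileum pool. Members called for any difference, 9 with the main setting, numbered 4 with centred arrays, 3 with the upper middle probe set of each gene and 5 to 15 when 1 sample was left out. For ileum against jejunum, 2 with the main setting, they numbered 0 with centred arrays, 4 with the filter, 1 without the intensity trend, 0 in the 8 samples, 0 with the lower middle probe set and 0 to 7 when 1 sample was left out. For jejunum against duodenum the 1 call became 0 with the upper middle probe set and 1 to 4 with 1 sample left out. For colon against ileum the 2 became 1 with the lower middle probe set and 1 to 3 with 1 sample left out. For colon against the small-intestinal mean the 9 became 5 with the lower middle probe set and 3 to 13 with 1 sample left out, the lowest without colon 1 or colon 3. With the lower middle probe set the direction turned for Cct5 in ileum against jejunum (-0.43) and for Dnajc10 against the ileum (-0.34) and the small-intestinal mean (-0.076). With the replicate number as a block 13, 1, 3, 2 and 8 members were called for any difference, jejunum against duodenum, ileum against jejunum, colon against ileum and colon against the small-intestinal mean, and of the 14 calls that of Hspb2 was lost (adjusted p 0.0512 by limma). The causes were not tested. With 3 pools a segment, differences below the spread between pools were not detectable, and 20 members read below the array median in every segment.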
